A study of Mus musculus with 101 samples.

Results

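The expression of 29 genes of lymphocytes and lymph nodes was examined in white fat of male C57BL/6NTac mice, out of 24475 gene IDs counted. They were listed by name and joined by Entrez ID to the rows of both count tables, and all 29 were found. By role they comprised 8 B cell genes, 15 T cell genes, 4 genes listed as shared by B and T cells and 2 genes of lymph node vessels. The 101 mRNA libraries came from subcutaneous and epididymal fat of 2 experiments. In the overexpression experiment, WT mice on chow received an AAV8 vector, an adeno-associated virus that drove expression in the liver of either GFP as control or mouse Inhbe, written mInhbe, at 10 libraries for each group and depot. In the knockout experiment, untreated WT and Inhbe KO mice ate chow or a high-fat diet (HFD). On chow each depot had 8 WT and 7 KO libraries. On HFD it had 8 KO libraries, with 7 WT libraries of subcutaneous and 8 of epididymal fat. Not given in the sources used here were the age of the mice, the promoter of the vector, the KO allele and which subcutaneous pad was taken. Inhbe encodes a subunit of activin E, a secreted ligand made by the liver, and the study asked how it acts on fat.

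B cells recognise antigen through surface immunoglobulin held by the Cd79a and Cd79b chains, and T cells through a receptor held by the Cd3 chains and read out by the kinases Lck and Zap70. Both cell types enter a lymph node through high endothelial venules, whose cells make the mucin Glycam1 and the addressin Madcam1, a ligand of an integrin of lymphocytes. In the mouse the inguinal subcutaneous pad encloses a lymph node, and fat itself holds resident lymphocytes that can change with diet. In bulk tissue, fewer cells of a type and less RNA per cell cannot be told apart.

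The promoters of 4 genes are shown. Il7r and Cd22 moved most with diet in epididymal fat, and Glycam1 split the subcutaneous libraries. Cd3d is shown as a gene of the T cell receptor. The sequences are from RefSeq for GRCm38.p6, the assembly that mm10 names, each with 250 bases before and 50 after the annotated start, read 5′ to 3′ on the strand of the gene. Capitals mark a match, on either strand, to CCCNNGGG (the core bound by the B cell factor EBF1) or CTTTGA (the core bound by TCF and LEF factors). Il7r lies at chr15:9529827-9530126 on the minus strand, Cd22 at chr7:30878979-30879278 on the minus strand, Cd3d at chr9:44981536-44981835 on the plus strand and Glycam1 at chr15:103565032-103565331 on the minus strand. The Cd22 window lies inside the annotated gene, whose 5′ end is at base 30880342, so it is that of an internal start.
Il7r: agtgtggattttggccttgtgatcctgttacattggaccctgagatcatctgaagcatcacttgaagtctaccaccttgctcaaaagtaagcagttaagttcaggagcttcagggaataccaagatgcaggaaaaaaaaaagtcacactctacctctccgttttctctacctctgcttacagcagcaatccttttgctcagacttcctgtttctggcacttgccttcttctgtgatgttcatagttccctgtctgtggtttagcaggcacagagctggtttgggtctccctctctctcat
Cd22: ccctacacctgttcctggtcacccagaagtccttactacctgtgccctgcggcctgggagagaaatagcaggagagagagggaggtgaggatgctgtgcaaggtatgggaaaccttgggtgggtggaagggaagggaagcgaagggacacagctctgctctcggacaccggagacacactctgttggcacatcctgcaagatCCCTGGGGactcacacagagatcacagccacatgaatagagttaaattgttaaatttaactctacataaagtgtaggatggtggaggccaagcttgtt
Cd3d: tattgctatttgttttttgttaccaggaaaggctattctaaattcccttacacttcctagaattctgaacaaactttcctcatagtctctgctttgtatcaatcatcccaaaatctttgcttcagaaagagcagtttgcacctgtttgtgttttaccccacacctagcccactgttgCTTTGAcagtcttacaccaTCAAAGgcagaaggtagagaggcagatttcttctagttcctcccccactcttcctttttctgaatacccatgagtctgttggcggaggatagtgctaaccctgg
Glycam1: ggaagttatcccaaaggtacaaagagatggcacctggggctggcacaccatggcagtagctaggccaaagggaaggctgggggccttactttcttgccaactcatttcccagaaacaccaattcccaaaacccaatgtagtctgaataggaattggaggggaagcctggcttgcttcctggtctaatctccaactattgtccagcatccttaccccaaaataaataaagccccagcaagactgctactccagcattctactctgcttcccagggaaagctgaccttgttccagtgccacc

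Promoter windows were found for 21 of the 29 genes. The window of Cd22 held 1 match to CCCNNGGG and that of Cd3d 2 matches to CTTTGA, while those of Il7r and Glycam1 held neither. CCCNNGGG was present in 13.7% of 32851 promoter windows of all genes and in 5 of the 30 windows of the 21 genes (Bcl11b, Cd22, Cd27, Madcam1 and Zap70). CTTTGA was present in 16% of all windows and likewise in 5 of the 30 (Bcl11b, Cd27, Cd3d, Lef1 and Zap70). GAGGAAGT, a core bound by PU.1, was present in 3.2% of all windows and in 1 of the 30 (Cd5). A match is only a run of letters, and its absence says only that these letters are not in this window. The 3 Cd3 genes lie side by side on chromosome 9: Cd3g and Cd3d start head to head with 1338 bases between them, and Cd3e follows Cd3d after 11683 bases. Cd8b1 and Cd8a are neighbours on chromosome 6, 35935 bases apart.

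The libraries held 13 to 20.2 (times 1e+06) estimated counts each. A level of 3 counts was therefore 0.149 to 0.231 CPM, that is counts per 1e+06 of the library total. Inhbe had 0 counts in all 20 GFP libraries, 35 to 846 in the subcutaneous mInhbe libraries and 4 to 232 in the epididymal ones. In the knockout experiment no library held more than 5 counts of Inhbe, so its level does not check the KO label there. Summed genes of fat cells stood at 9389.7 CPM or more in every library. Libraries of a group are labelled as biological replicates without more detail, and p-values measure the spread between these libraries. Whether both depots came from the same mice is not stated in the labels, and the fits over both depots treated all libraries as independent. A gene is called when its adjusted p is under 0.05 (edgeR quasi-likelihood test with Benjamini-Hochberg adjustment over all genes of a fit), and log2 fold changes carry their SE.

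Subcutaneous fat was rich in transcripts of all 4 roles and epididymal fat was poor in them. In GFP mice the 29 genes summed to 948, 1436 and 2136 CPM (lowest, median and highest of 10 libraries) in subcutaneous fat and to 27, 36.7 and 169 CPM in epididymal fat. The depots did not overlap. In WT mice on chow the same sums were 18.8, 1336 and 1850.4 CPM against 38.7 to 79.8 CPM in epididymal fat, and 1 subcutaneous library lay below every epididymal one. Per kilobase of exon, which allows genes to be compared, Glycam1 and Cd79a led the subcutaneous GFP libraries with means of 117 and 109.9 CPM. Next came Cd79b at 67.0, the lymphotoxin subunit Ltb at 47.2, Ptprcap (a partner of the phosphatase CD45) at 35.7 and the T cell factor Tcf7 at 34.5 CPM per kilobase. The B cell factor Pax5 at 3.92, the T cell costimulator Cd28 at 3.13 and Madcam1 at 1.05 were the lowest.

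All 29 genes were called lower in epididymal than in subcutaneous GFP libraries, where 28.7% of 15416 genes tested were called lower and 64.5% called in either direction. Their median log2 fold change was −5.21, against 0.06 over all genes. B cell genes had a median of −5.96, T cell genes −4.72, shared genes −4.66 and vessel genes −6.25. Blk, Pax5, Fcer2a, Cd8a, Cd8b1, Cd5, Glycam1 and Madcam1 did not pass the low-count filter in epididymal fat alone. They entered this fit through the subcutaneous libraries, so they could be called only as lower. Both vessel genes were near 0 in epididymal fat, so the size of their difference rests on the counting floor. In the knockout experiment the vessel genes likewise did not pass in epididymal fat. Cd79a stood at −6.22 ± 0.44 (adjusted p 3.82e-15) and Cd3e at −5.21 ± 0.25 (adjusted p 8.04e-21). The smallest difference was that of Lef1, a T cell factor that other cells also express, at −2.76 ± 0.31. Without epididymal GFP library 8 all 29 were still called, Cd79a stood at −7.55, and the medians were −5.65 over the 29, −6.96 for B cell and −8.84 for vessel genes. In WT mice on chow all 29 were again called lower, where 18.7% of 15480 genes were, with a median of −4.18 against 0.05. Glycam1 had 6 counts in all over the 8 epididymal WT chow libraries, against 3529 over the 8 subcutaneous ones. Genes of lymph node stroma and homing (such as the chemokine Cxcl13) were called lower in 11 of 11 cases in epididymal GFP fat, with a median of −4.83, while the macrophage genes had a median of 0.01.

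Glycam1 split the subcutaneous libraries into 46 that held 9.91 CPM or more and 4 that held at most 0.0665 CPM. All 4 came from WT mice of the knockout experiment: library 1 on chow and libraries 1, 2 and 4 on HFD. In these 4 the 29 genes summed to 18.8, 42.9, 33.5 and 40.8 CPM, within or below the range of epididymal fat. Their B cell genes summed to 2.68, 6.58, 4.89 and 5.71 CPM and their T cell genes to 13.6, 10.5, 12.7 and 20.0 CPM. Il7r, which encodes the receptor of interleukin 7, was the most abundant of the 29 in the 3 HFD libraries, at 25.2, 14.7 and 12.6 CPM, and stood at 1.08 CPM in the chow library. Summed genes of lymph node stroma stood at 18, 8.71, 11.7 and 18.8 CPM, against 204 CPM or more in the other subcutaneous libraries. Genes of macrophages (615, 1633, 1168 and 1282 CPM) and of fat cells (22382 to 24364 CPM) did not drop with them. Results that rest on these 4 libraries are given with and without them, a choice made after seeing the data and by the level of 1 of the 29 genes.

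In epididymal fat Glycam1 was under 1 CPM in 50 of 51 libraries, and Madcam1 reached at most 0.186 CPM, so that the vessel genes were near 0 there. The exception was GFP library 8 with 4.63 CPM of Glycam1. That library also held 64.3 CPM of B cell and 80.1 CPM of T cell genes and 2811 CPM of skeletal muscle genes. In the 46 subcutaneous libraries with Glycam1 the ratio of summed B to summed T cell genes was 1.17 ± 0.171 (mean ± SD), from 0.871 to 1.57.

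**Figure D1:**
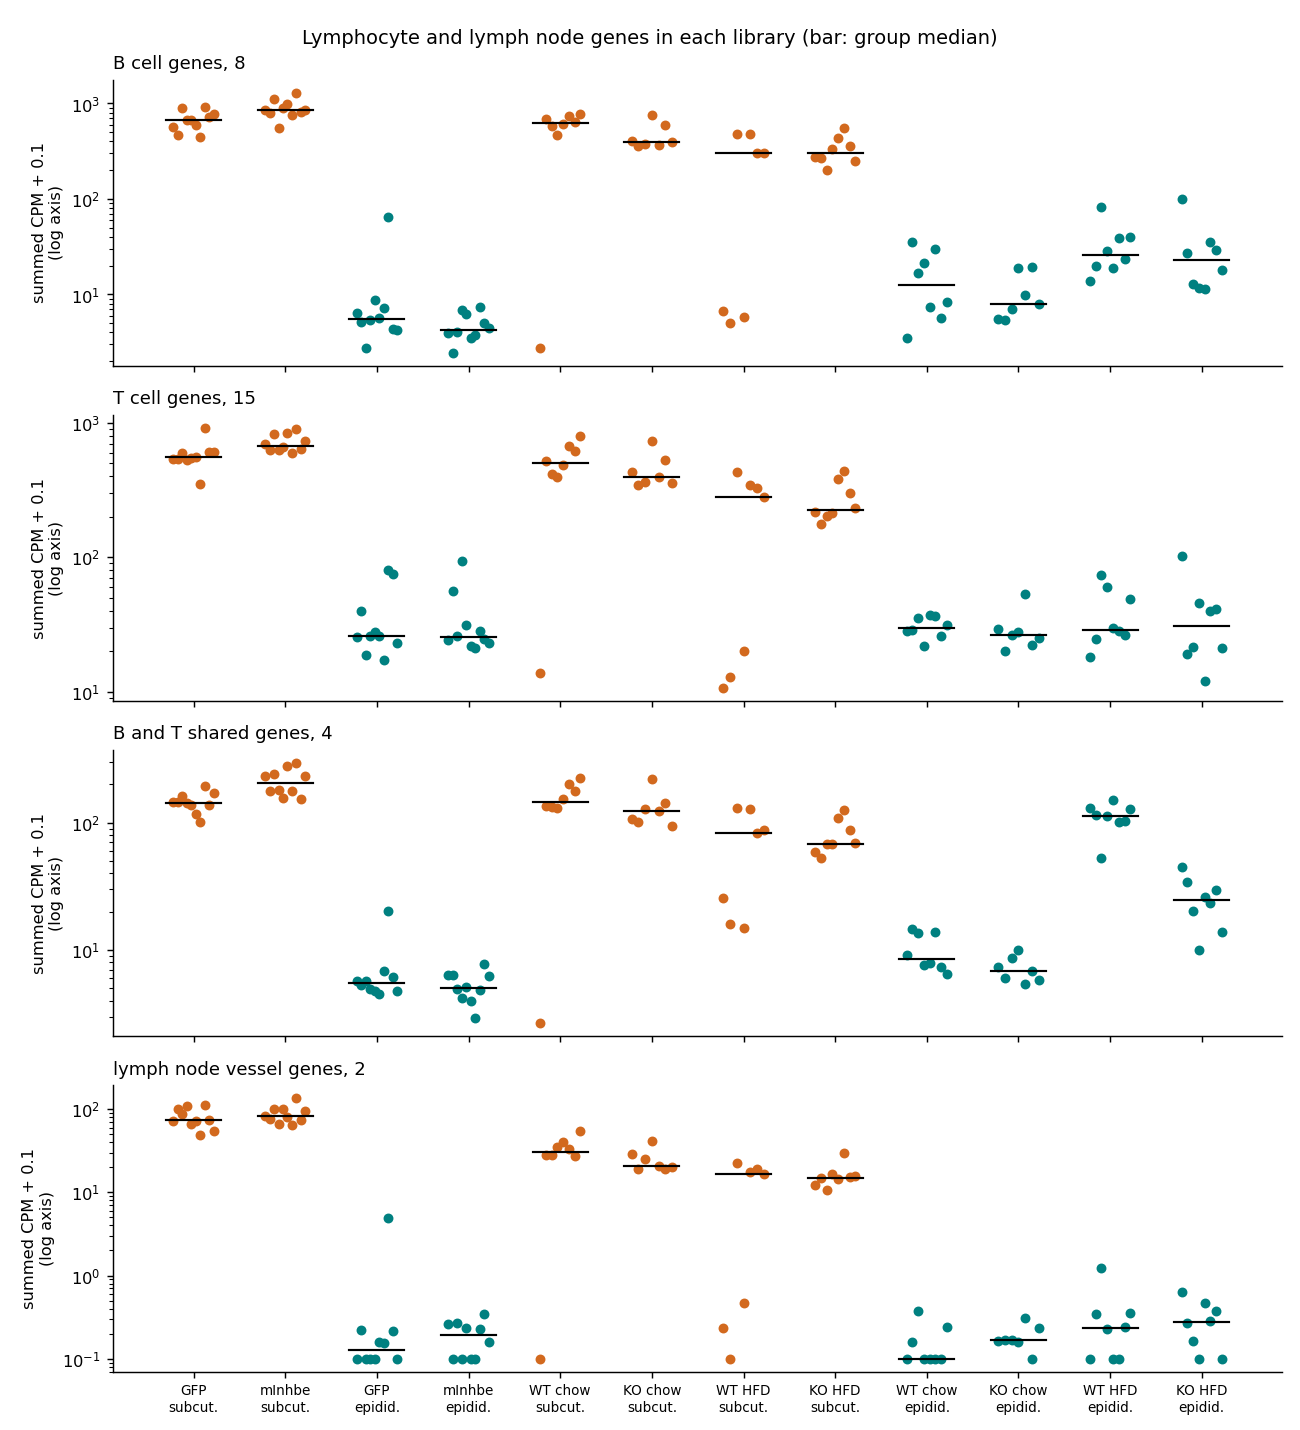
Summed CPM (plus 0.1, log axis) of the B cell, T cell, shared and vessel genes in each of 101 libraries, by group, with orange points for subcutaneous and teal points for epididymal fat and a bar at the group median. One WT chow and 3 WT HFD subcutaneous libraries lie at epididymal levels, and the shared genes of epididymal WT HFD fat reach a median of 113 CPM. Il7r alone stands at 43.7 to 149.8 CPM in those epididymal libraries and makes up most of that sum.

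mInhbe raised 4 of the 29 genes in subcutaneous fat and lowered none: Ms4a1 and Cr2 of B cells, Cd28 of T cells and Il7r of the shared list. The share of all 13990 genes called higher was 15.8%, and 27.2% were called in either direction, so that 4 of 29 lay near the background. All 29 fitted changes were above 0, from 0.03 to 1.01, with a median log2 fold change of 0.17 against −0.00 over all genes.

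Ms4a1, which encodes the B cell surface protein CD20, ran through 35.8, 74.5 and 106 CPM (lowest, median, highest) with GFP and through 65.1, 119 and 198 CPM with mInhbe. The groups overlapped and the log2 fold change was 0.67 ± 0.16 (adjusted p 0.00546). Cr2, the complement receptor CD21 of B cells and follicular dendritic cells, went from 23, 51.3 and 72.6 CPM to 54.1, 95.1 and 158 CPM. Its groups also overlapped, with a log2 fold change of 0.84 ± 0.18 (adjusted p 0.00349). The core B cell receptor gene Cd79a changed by 0.15 ± 0.10 (adjusted p 0.289) and Pax5 by 0.13. Cd22, an inhibitory co-receptor, stood at 0.28 ± 0.14 (adjusted p 0.135). Cr2 was thus 0.329 of the level of Cd79a with GFP and 0.52 with mInhbe, and Ms4a1 0.458 and 0.657 of it. Exons span 7344 bases in Cr2, 3075 in Ms4a1, 8004 in Pax5 and 1457 in Cd79a. GFP library 2 was the lowest of its group in both ratios, at 0.154 for Cr2 and 0.239 for Ms4a1. The part of transcript length in these ratios was not tested.

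Cd28, which gives T cells their second signal, was at 6.67, 13.2 and 21.1 CPM with GFP and at 17.4, 26.2 and 41.9 CPM with mInhbe. Most mInhbe libraries lay above the GFP range although the groups overlapped, and the log2 fold change was 0.88 ± 0.16 (adjusted p 0.001). The T cell receptor chain Cd3e changed by 0.15 and was not called, and neither were Cd3g (0.37 ± 0.14, adjusted p 0.0509) or the co-receptor Cd8a (0.35 ± 0.14, adjusted p 0.0588). The adhesion receptor gene Cd2 ran through 23.1, 38.8 and 58 CPM with GFP and 31.2, 41.6 and 54.4 CPM with mInhbe, with a log2 fold change of 0.09 ± 0.11 (adjusted p 0.572). Cd28 per Cd3e was 0.326 with GFP and 0.533 with mInhbe. Their exons span 4347 and 1462 bases, GFP library 2 was again the lowest of its group (0.119), and the part of transcript length was not tested. Cd8a per Cd4, the balance of cytotoxic and helper T cell co-receptors, was 1.15 and 1.25.

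Il7r had the largest change of the 29, from 22.4, 40.0 and 64.1 CPM with GFP to 42.3, 88.1 and 168 CPM with mInhbe. The log2 fold change was 1.01 ± 0.21 (adjusted p 0.00265) and the groups overlapped. Il7r per Cd3e was 1.03 ± 0.411 with GFP and 1.78 ± 0.708 with mInhbe (SD, n = 10 each). Here too GFP library 2 was the lowest of its group (0.415). Exons of Il7r span 3540 bases and those of Cd3e 1462, and the part of transcript length was not tested. Glycam1 stood at 47.9, 71.7 and 110.3 CPM with GFP and at 62.5, 79.2 and 131 CPM with mInhbe, a log2 fold change of 0.03 ± 0.15 (adjusted p 0.882). Madcam1 changed by 0.34 (adjusted p 0.0855). The summed levels of both groups overlapped for B cell genes (447 to 914 CPM with GFP, 556 to 1295 CPM with mInhbe) and for T cell genes (349.8 to 916 and 599 to 901 CPM).

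Among other genes of antigen receptor signalling 6 of 12 rose with mInhbe and none fell, led by Ptprc (the CD45 phosphatase, 1.03 ± 0.18), Themis (0.92) and Trat1 (0.74). Of 7 tested genes of regulatory T cells 4 rose, with Ikzf2 at 0.68, Il1rl1 at 0.62 and Il2ra at 0.61, and the list had a median of 0.57. Of the lymph node stroma, the chemokine gene Cxcl13 rose by 0.58 ± 0.16. Germinal centre and plasma cell genes rose in 1 and fell in 1 of 10 cases, and 1 of 10 cytotoxic genes rose (Klrd1, 0.49). Macrophage genes summed to 666 to 1229 CPM with GFP and 799 to 1380.2 CPM with mInhbe, and 1 of 11 rose (Mrc1, 0.67). Fat cell genes summed to 19236 to 25729 CPM with GFP and 13408 to 22338 CPM with mInhbe, and 5 of 8 fell, among them Lep (−0.98), Fabp4 (−0.52) and Retn (−0.35). The part of these shifts in the changes of Ms4a1, Cr2, Cd28 and Il7r was not tested.

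Leaving out any 1 library kept all 4 calls and gave 4 to 9 called genes, with 9 without GFP library 8 and 8 without mInhbe library 4. Scaling by library totals, which moved the median of all genes to 0.10, called 7 of the 29. Over all genes that scaling gave 2869 higher and 790 lower calls in place of 2204 and 1597.

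**Figure D2:**
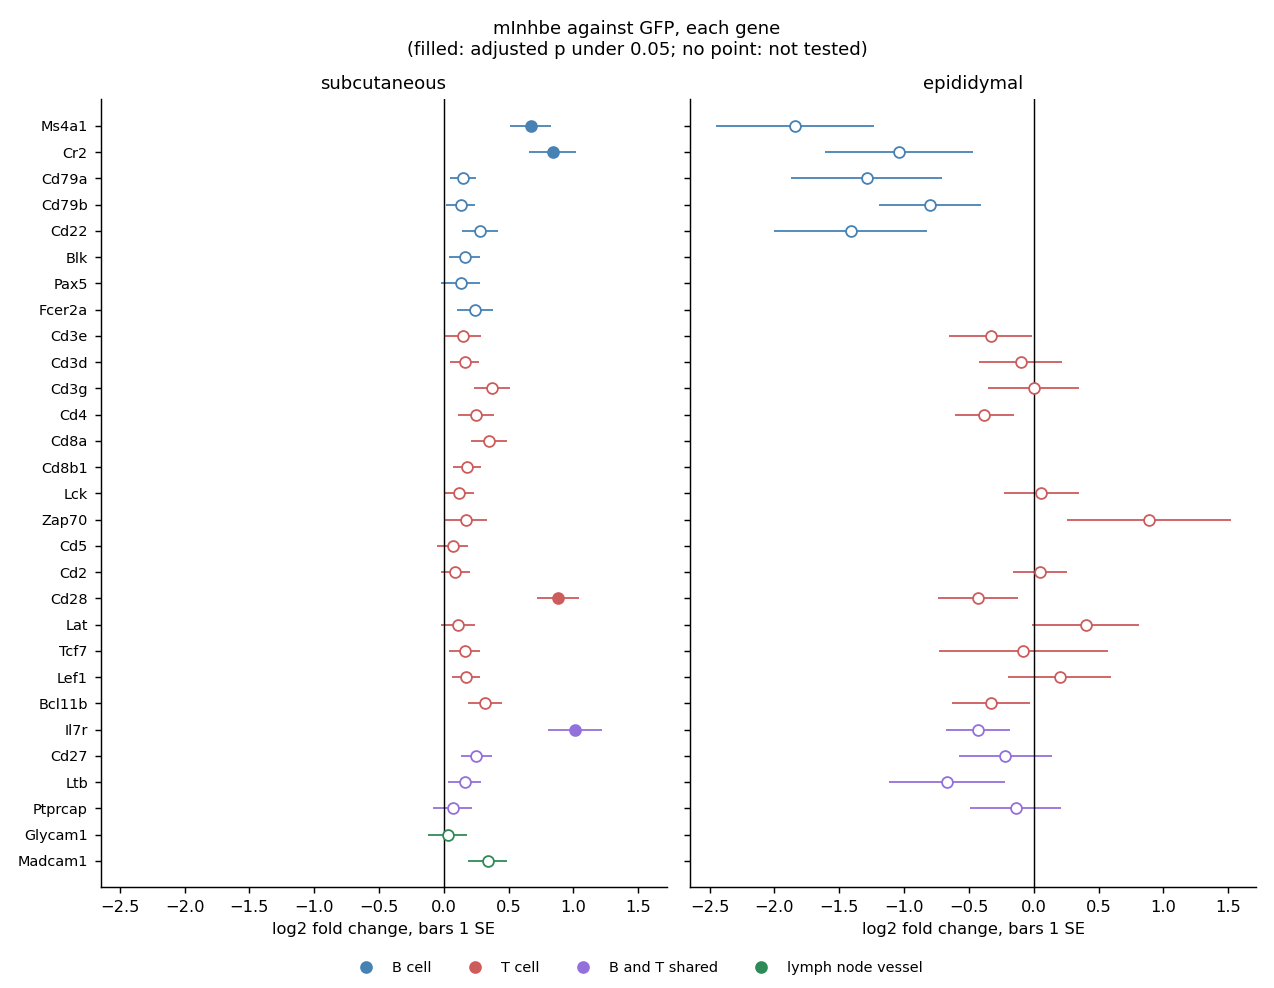
Log2 fold change of mInhbe against GFP for each gene (points, bars 1 SE) in subcutaneous (left) and epididymal fat (right), with filled points for an adjusted p under 0.05 and no point for genes not tested. Ms4a1, Cr2, Cd28 and Il7r are filled in subcutaneous fat and none in epididymal fat.

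In epididymal fat 21 of the 29 genes passed the filter on low counts, and none was called with mInhbe, where 1.16% of 14850 genes were. DESeq2 called none as well, and 3 of the 21 had an unadjusted p under 0.05 with edgeR. The 8 not tested were Blk, Pax5, Fcer2a, Cd8a, Cd8b1, Cd5, Glycam1 and Madcam1. B cell genes summed to 2.63, 5.43 and 64.3 CPM with GFP and to 2.34, 4.13 and 7.23 CPM with mInhbe. Their median log2 fold change was −1.29, and −0.20 without GFP library 8. T cell genes summed to 17.1, 25.9 and 80.1 CPM with GFP and to 21.1, 25.2 and 93.3 CPM with mInhbe, with the groups almost wholly overlapping. The highest mInhbe sum, that of library 4, held 50.1 CPM of Tcf7 and 19.7 CPM of Lef1 beside 1.32 CPM of Cd3e.

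The difference between depots in the mInhbe effect was tested in 1 fit over both. It was below 0 and called for 7 of the 29 genes, where 9.41% of 15416 genes were called lower. Of these, Fcer2a and Glycam1 had not passed the low-count filter in epididymal fat and entered the fit through subcutaneous fat. With a block for the replicate number none of the 29 was called, and of 15416 genes 1 was called higher and 3 lower. Il7r differed by −1.46 ± 0.33 (adjusted p 0.013) and Cd28 by −1.33 ± 0.34 (adjusted p 0.0147). Ms4a1 differed by −2.52 ± 0.62 (adjusted p 0.0137) and Cr2 by −1.89 ± 0.57 (adjusted p 0.0275), with Cd22, Fcer2a (the low-affinity IgE receptor of B cells) and Glycam1 between −1.71 and −3.75. Without epididymal GFP library 8, 3 calls were left: Ms4a1 (−1.33, adjusted p 0.0188), Il7r (−1.24, adjusted p 0.0146) and Cd28 (−1.11, adjusted p 0.021). Glycam1 then stood at 0.84 (adjusted p 0.5), with the opposite sign. Cr2 at −0.90 (adjusted p 0.126), Cd22 at −0.54 (adjusted p 0.281) and Fcer2a at −0.29 (adjusted p 0.728) were no longer called.

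With KO on chow none of the 29 genes was called in either depot. In subcutaneous fat 0.253% of 14220 genes were called, and none of the 29 was called or had an unadjusted p under 0.05 (DESeq2 also called none). Their median log2 fold change was −0.04 against −0.02 over all genes. B cell genes summed to 2.68, 626 and 781 CPM in WT and 356, 394 and 754 CPM in KO, and T cell genes to 13.6, 504 and 792 and to 345, 396 and 738 CPM. Apart from WT library 1 the groups overlapped. Without that library and the 3 WT HFD ones the median was −0.22, again with no call, 3 unadjusted p under 0.05 and 0.706% of genes called. In epididymal fat 27 genes were tested, where 0.658% of all genes were called. None was called there by edgeR or DESeq2 or had an unadjusted p under 0.05, and the median was −0.29 against −0.02.

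HFD lowered 5 of the 29 genes in subcutaneous fat of WT mice and raised none: Cd22 of B cells, Cd4, Cd8a and Cd28 of T cells, and Cd27, a costimulatory receptor of both. Of all 14220 genes 21.5% were called lower and 44.1% in either direction, so that 5 of 29 lay below the background. All 29 fitted changes were below 0, with a median of −0.97 against −0.03. Cd28 ran through 1.21, 20.2 and 36.6 CPM on chow and 1.68, 3.48 and 16.0 CPM on HFD (log2 fold change −1.40 ± 0.43, adjusted p 0.0104). Cd4 ran through 1.85, 40.1 and 72.8 CPM on chow and 1.06, 17.7 and 28.8 CPM on HFD (−1.48 ± 0.55, adjusted p 0.0292). Low libraries stood in both groups, 1 of 8 on chow and 3 of 7 on HFD, and for Cd28 and Cd4 the groups overlapped through them.

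Without the 4 libraries 7 genes were called lower, where 18.5% of 14449 genes were, and the median moved to −0.39. All 5 calls were among the 7, which added Fcer2a (−0.93 ± 0.24, adjusted p 0.00388) and Glycam1 (−0.72 ± 0.23), the gene that had chosen the libraries. Cd22 then stood at 91.8, 133 and 195 CPM on chow (n = 7) and 33.2, 50.3 and 94.5 CPM on HFD (n = 4), a log2 fold change of −1.09 ± 0.28 (adjusted p 0.00347). Cd4 stood at 30.3, 43.6 and 72.8 CPM on chow and 17.7, 21.2 and 28.8 CPM on HFD, without overlap (−0.92 ± 0.27, adjusted p 0.00773). Cd8a did not overlap either, with 41.6 to 96.9 CPM on chow and 15.3 to 34 CPM on HFD (1.99-fold lower, adjusted p 0.00244), nor did Cd27 (11 to 21.3 and 5.28 to 9.66 CPM) or Cd28 (16.8 to 36.6 and 3.48 to 16 CPM). Cd79a overlapped, with 93.6 to 159 CPM on chow and 66.7 to 138 CPM on HFD. A fit of only the 2 groups, with all libraries, called none of the 29, where 1680 of 13892 genes were called lower. Leaving out 1 library gave 1 call without WT chow library 8 or without WT HFD library 1 or 4, and 9 without WT chow library 1.

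In KO mice, whose subcutaneous libraries included none of the 4, HFD gave no call among the 29 (edgeR and DESeq2; 0 with an unadjusted p under 0.05), where 20.7% of genes were called. Summed CPM of the 29 was 822, 904 and 1754 on chow and 484, 598 and 1142 on HFD, and the median log2 fold change was −0.44 against −0.04. The spread was estimated over all 4 groups of the depot. When the 4 WT libraries were left out the fold changes barely moved (median −0.44), the SEs shrank, and 7 genes were called lower, where 11.7% of genes were. These were the T cell genes Cd3e (−0.52 ± 0.18, adjusted p 0.034), Cd8a, Lck, Zap70 (−0.67 ± 0.20, adjusted p 0.015) and Lef1, with Ltb and Madcam1 (−1.02 ± 0.35, adjusted p 0.0346). Madcam1 was near the counting floor, with 9 to 22 counts per KO library on chow and 1 to 11 on HFD. A fit of only the 2 KO groups called 12 of the 29 lower, where 3294 of 13681 genes were called lower.

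For KO against WT on HFD in subcutaneous fat the direction turned when the 4 libraries were left out, 3 of which were of WT on HFD. With all libraries 28 of 29 changes were above 0 (26 when scaled by library totals), with a median of 0.51 against −0.01, and none was called (edgeR; 1 with an unadjusted p under 0.05, and DESeq2 called 1), where 18.9% of genes were. B cell genes summed to 4.89, 302 and 478 CPM in WT and 202, 303 and 551 CPM in KO. The WT libraries fell into 3 at 6.58 CPM or less and 4 at 302 CPM or more, and the latter lay inside the range of KO. Without the 4 libraries, 9 of 29 changes were above 0, the median was −0.25, and 3 genes were called lower in KO, where 15.4% of genes were. They were Ptprcap (−0.75 ± 0.22, adjusted p 0.0133), Lat, the adaptor that Zap70 phosphorylates (−0.71 ± 0.24, adjusted p 0.0302), and Ltb (−0.58 ± 0.20, adjusted p 0.0337). Lat stood at 11.8 to 31.6 CPM in the 4 remaining WT libraries and 5.44 to 14.6 CPM in KO, with some overlap. Of these WT libraries, 3 and 6 held the most Lat (31.6 and 17.3 CPM) and Ptprcap (36 and 22.3 CPM). Cr2, with exons of 7344 bases, stood at 64.7 CPM in library 3 and 11.6 CPM in library 6. Exons of Ptprcap, Ltb and Lat span 927, 1178 and 1245 bases, and the part of transcript length in these calls was not tested. Macrophage genes summed to 936 to 1633 CPM in the 7 WT libraries and 531 to 679 CPM in KO, without overlap, and their part in these values was not tested. The difference between genotypes in the HFD effect was called for none of the 29 with or without the 4 libraries (0 and 2 with an unadjusted p under 0.05), where 2.14% and 2.28% of genes were called. Its median was 0.57 with them and 0.03 without.

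**Figure D3:**
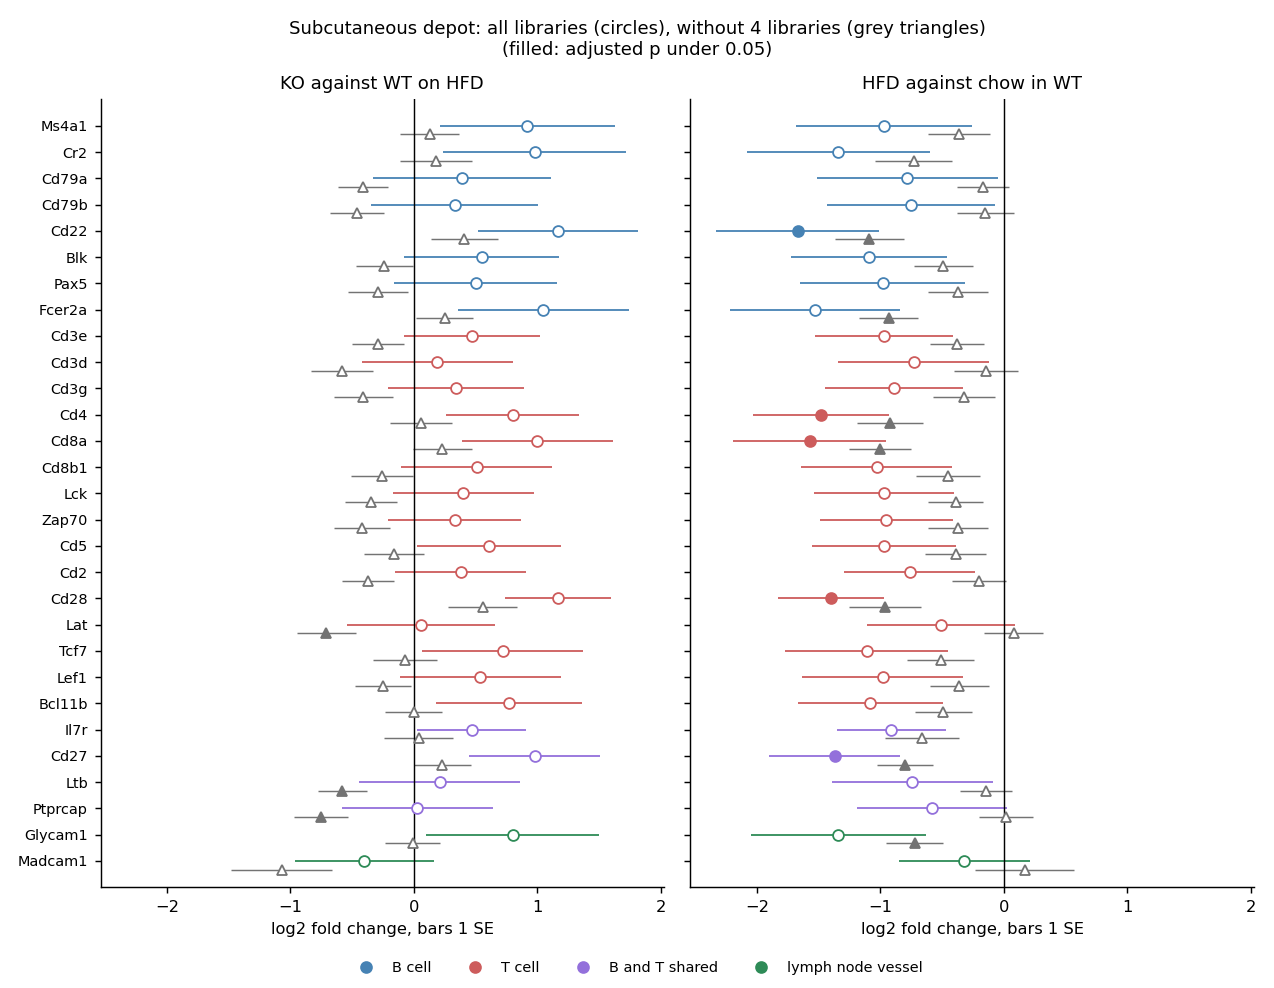
Log2 fold change (bars 1 SE) of each gene in subcutaneous fat for KO against WT on HFD (left) and HFD against chow in WT (right), with circles for all libraries and grey triangles without the 4 libraries under 1 CPM of Glycam1. Filled symbols have an adjusted p under 0.05, and the median of the left panel moves from 0.51 to −0.25.

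In epididymal fat HFD raised 6 of 27 tested genes in WT mice and lowered none: Cd22 of B cells, Cd8a, Cd8b1, Cd28 and Lat of T cells, and Il7r. Of 15042 genes 28.9% were called higher and 54.1% in either direction, so that 6 of 27 lay below the background. The median of the 27 was 0.60 against −0.02 over all genes.

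Il7r had the largest change of the 27. It ran through 3.6, 5.93 and 10.4 CPM on chow and 43.7, 109 and 149.8 CPM on HFD, without overlap, a log2 fold change of 4.06 ± 0.32 (adjusted p 6.05e-12). Those 8 libraries held as much Il7r as many subcutaneous ones. Cd22 went from 0.472, 2.63 and 6.51 CPM to 9.39, 15 and 28.9 CPM, again without overlap (2.40 ± 0.48, adjusted p 0.000116). Lat went from 0.434, 0.964 and 1.28 CPM to 1.48, 3.04 and 4.41 CPM without overlap (1.72 ± 0.37, adjusted p 0.000259).

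Genes that define the same cells had smaller fitted changes. Cd79a changed by 0.75 (adjusted p 0.32), with medians of 2.43 CPM on chow and 2.55 CPM on HFD and highest values of 5.84 and 17.3 CPM. Cd3e changed by 0.62 ± 0.43 (adjusted p 0.224), and the shared genes Cd27 and Ltb by 0.17 and 0.75. Cd8a rose from 0.202, 0.695 and 1.48 CPM to 0.424, 1.59 and 4.09 CPM, with overlap (1.45 ± 0.47, adjusted p 0.0105), and Cd8b1, the other chain of the CD8 co-receptor, by 1.57 ± 0.51 (adjusted p 0.0104). Cd28 rose from 0.99, 2.4 and 3.47 CPM to 3.39, 4.58 and 6.96 CPM (1.03 ± 0.36, adjusted p 0.0154), where the groups barely overlapped. Tcf7, a factor of naive T cells, stood at −0.55 and was not called.

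Macrophage genes moved with this diet effect: 10 of 11 rose and 1 fell, with Trem2 at 4.94, Itgax at 4.57 and Cd68 at 3.89, and their sum went from 1082 to 1826 CPM on chow to 3817 to 5401 CPM on HFD. Of 11 further antigen receptor signalling genes 8 rose and none fell, led by Blnk (3.02), Btk (2.36) and Syk (2.14), kinases and an adaptor that B cells share with myeloid cells. Germinal centre and plasma cell genes rose in 3 and fell in 1 of 8 cases, and cytotoxic genes rose in 2 of 8 (Ccl5 at 1.41 and Nkg7 at 1.10). Glycam1 stayed at or under 0.965 CPM. The part of macrophages in the rise of Il7r, Cd22 and Lat was not tested.

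In KO mice HFD raised 13 of the 27 genes and lowered none, where 24.7% of genes were called higher and 38.7% in either direction, and the median was 1.16 against 0.00. B cell genes accounted for 4 of the 13 (Cd79a, Cd79b, Cd22 and Fcer2a) and T cell genes for 8 (Cd3d, Cd3g, Cd4, Cd8a, Cd8b1, Lck, Cd5 and Lat), with Il7r as the last. Il7r went from 3.57, 4.31 and 7.05 CPM to 4.93, 22.1 and 32.7 CPM, with slight overlap (2.36 ± 0.32, adjusted p 1.2e-06). Cd22 went from 0.889, 1.21 and 4.7 CPM to 4.59, 7.85 and 27.7 CPM (2.47 ± 0.51, adjusted p 0.000369). Cd79a rose by 1.74 ± 0.68 (adjusted p 0.042) and Cd8b1 by 2.02 ± 0.53 (adjusted p 0.00345).

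Much of that count rested on 1 library. KO HFD library 1 held 101 CPM of B cell, 102 CPM of T cell and 1079 CPM of skeletal muscle genes, while the group medians of B and T cell genes were 22.6 and 30.6 CPM. Without it 4 genes were called and the median was 0.71: Il7r (2.29 ± 0.33, adjusted p 3.58e-06), Cd22 (2.07, adjusted p 0.00125), Cd8b1 (1.45, adjusted p 0.0195) and Cd8a (1.32, adjusted p 0.0305). Leaving out KO chow library 2, 3 or 7 gave 7 calls each. WT and KO mice, which have separate chow and HFD libraries, shared 5 called genes (Cd22, Cd8a, Cd8b1, Lat and Il7r), that is 5 of the 6 in WT and 5 of the 13 in KO. Of all genes 28.9% were called higher in WT and 24.7% in KO, and the share called in both was not computed. The KO call of Lat was lost in 8 of 15 fits without 1 library, among them that without KO HFD library 1. In KO mice 8 of 11 macrophage genes rose and 1 fell, and their sum went from 796 to 1319.9 CPM on chow to 1085 to 2558 CPM on HFD. Of the antigen receptor signalling genes 10 of 11 rose.

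**Figure D4:**
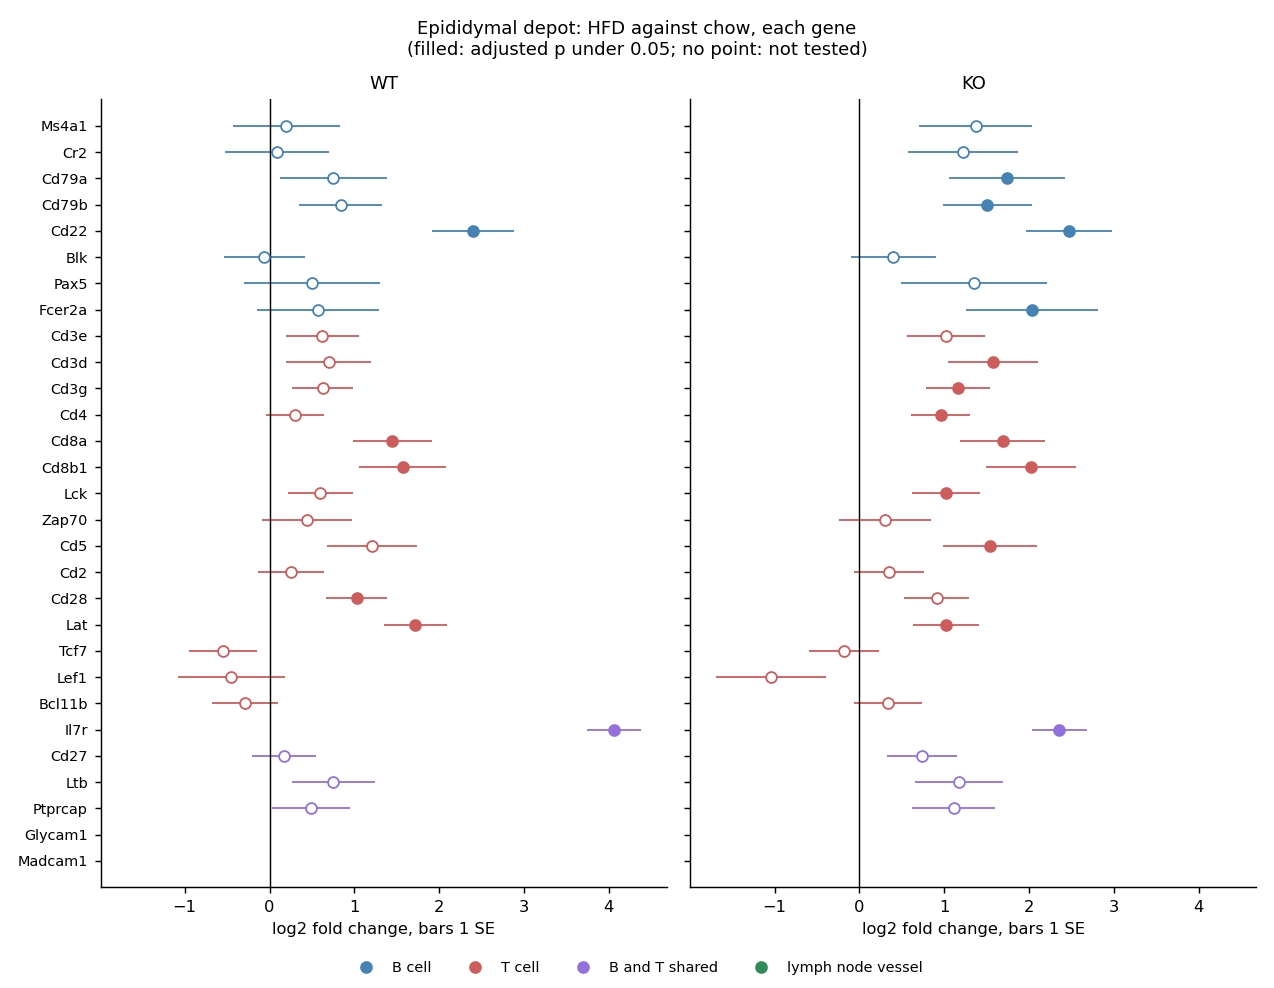
Log2 fold change of HFD against chow (bars 1 SE) for each gene in epididymal fat of WT (left) and KO mice (right), with filled points for an adjusted p under 0.05 and no point for the untested Glycam1 and Madcam1. Il7r stands at 4.06 in WT and 2.36 in KO, while Cd22 stands at 2.40 and 2.47.

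On HFD, epididymal fat of KO mice held less Il7r and less Lat than that of WT mice, and no other gene of the 27 tested was called, where 20.2% of 15042 genes were called lower and 37.2% in either direction. Il7r ran through 43.7, 109 and 149.8 CPM in WT and 4.93, 22.1 and 32.7 CPM in KO, without overlap, a log2 fold change of −2.18 ± 0.29 (adjusted p 5.3e-07). Lat ran through 1.48, 3.04 and 4.41 CPM in WT and 0.486, 1.11 and 3.16 CPM in KO, with overlap (−0.98 ± 0.36, adjusted p 0.0331). The call of Lat was lost without WT HFD library 1 or 4 or without KO HFD library 2, 3 or 8, and that of Il7r in no such fit. Without KO HFD library 1, 3 genes were called: Il7r, Lat and Cd28 (−1.17 ± 0.30, adjusted p 0.00283).

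With all libraries no such difference was called for the remaining genes. The median of the 27 was 0.22 against 0.01 over all genes, and 20 of them were above 0 (18 when scaled by library totals). Cd22 stood at −0.52 ± 0.45 (adjusted p 0.402), Cd79a at 0.43, Cd3e at 0.22 and Cd4 at 0.50. Without KO HFD library 1 the median turned to −0.14, with Cd22 at −0.92 (adjusted p 0.106), Cd79a at −0.20, Cd3e at −0.09 and Cd4 at 0.22, none of these 4 called. B cell genes summed to 13.8, 26 and 82.8 CPM in WT and 11.3, 22.6 and 101 CPM in KO, and T cell genes to 17.9, 28.8 and 73.7 CPM and 11.8, 30.6 and 102 CPM, with wide overlap. The 4 shared genes summed to 53.1, 113 and 152 CPM in WT and 9.95, 24.7 and 44.8 CPM in KO, without overlap. Il7r alone had medians of 109 and 22.1 CPM in the same groups.

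Macrophage genes were called lower in 10 of 11 cases in KO on HFD, with Itgax at −2.30, Trem2 at −2.12 and Cd68 at −1.72. Their sums, 3817 to 5401 CPM in WT and 1085 to 2558 CPM in KO, did not overlap, as those of Il7r did not. Antigen receptor signalling genes fell in 6 of 11 cases, led by Blnk (−1.79), Btk (−1.57) and Syk (−1.25). Whether lymphocytes or macrophages carried the Il7r transcripts was not tested.

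The difference between genotypes in the HFD effect in epididymal fat was called for Il7r alone of the 27, at −1.70 ± 0.42 (adjusted p 0.00479), where 8.7% of genes were called lower and 16.5% in either direction. For Cd22 it was 0.07 ± 0.66, for Cd8a 0.23 ± 0.68 and for Lat −0.70 ± 0.53, none of them called. Without KO HFD library 1 Cd22 stood at −0.33 and Cd8a at −0.13, both with the opposite sign and not called, and Il7r at −1.77 (adjusted p 0.00393) was again the only call. In the same test 7 of 11 macrophage genes were called lower, with Itgax at −1.78, Trem2 at −1.77 and Cd68 at −1.36, and 3 of 11 antigen receptor signalling genes (Blnk, Btk and Syk).

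**Figure D5:**
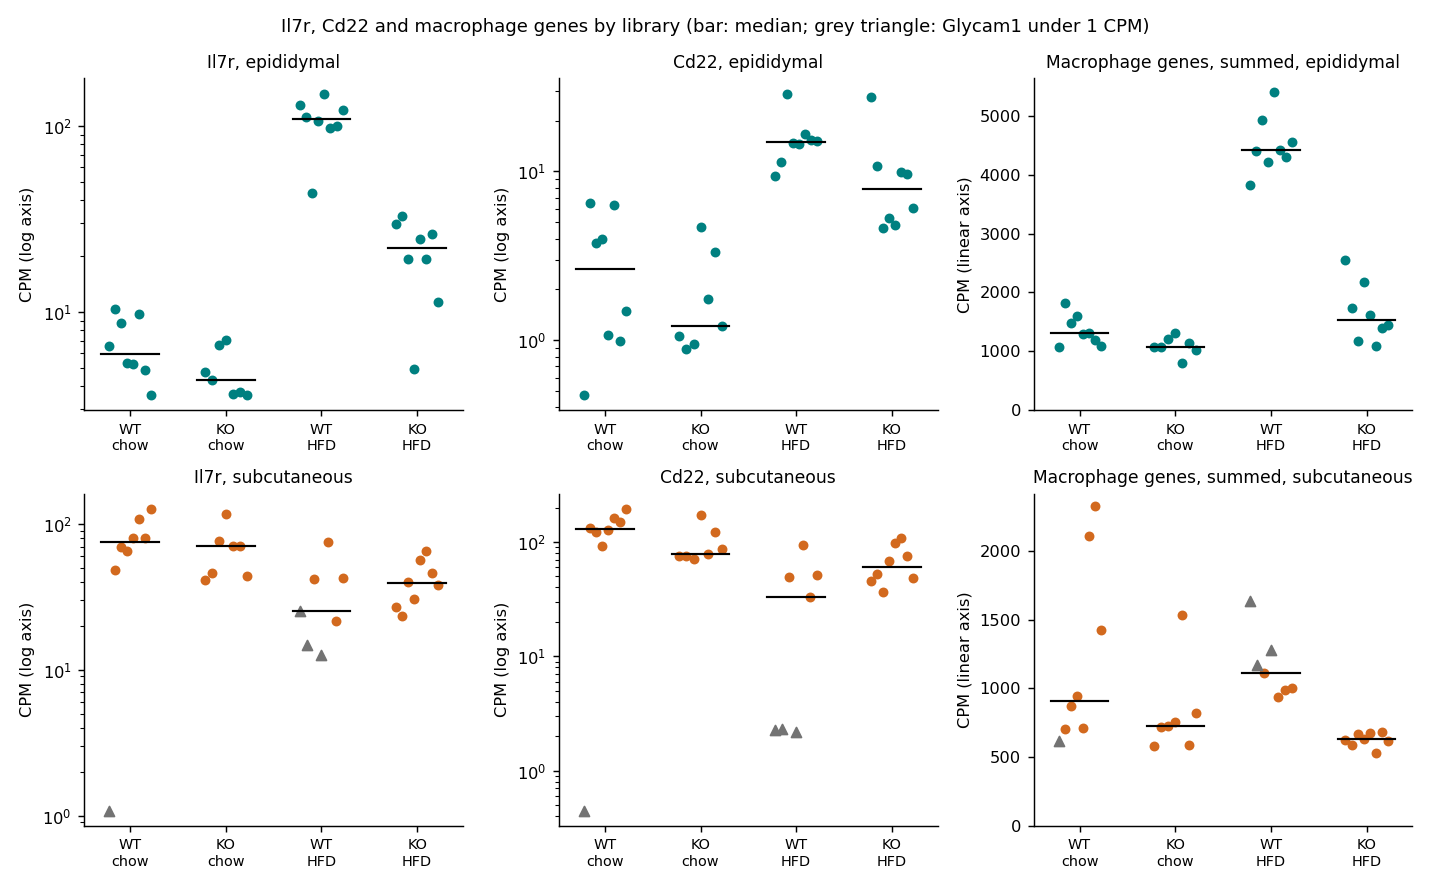
CPM of Il7r and Cd22 (log axes) and summed CPM of 11 macrophage genes (linear axis) in each library of the knockout experiment, in epididymal (top) and subcutaneous fat (bottom), with bars at medians and grey triangles for subcutaneous libraries under 1 CPM of Glycam1. In epididymal fat Il7r is at 43.7 CPM or more in all 8 WT HFD libraries and at most 32.7 CPM in the 8 KO HFD libraries, and macrophage genes separate the same groups.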

How the data were processed

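The members and all gene lists were chosen with earlier results of these data known. The authors deposited 2 tables, 1 per experiment, of estimated counts per Entrez gene ID, not scaled for depth. Within a tolerance of 1e-06, 2.94% of the values were not whole. The design had assumed raw counts, so the values were first rounded. Per the labels' protocols, the libraries were made from 500 ng RNA with 14 PCR cycles and sequenced as paired ends with 76 cycles. The build was mm10, per the submitters' processing notes. Not given in the sources used here were the aligner, the counter, the counting of strand and the use of the adapters' molecular identifiers. Of the IDs 24375 had a symbol in the RefSeq annotation of GRCm38.p6 and 100 had none. Overlapping and antisense genes therefore cannot be told apart.

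For WT on HFD the series text has 8 mice and the labels 7 subcutaneous libraries. The labels were used. No 2 libraries of a group were copies (383 pairs). CPM was computed from library totals. Each depot of each experiment was fitted with all its groups (both depots for depot comparisons) in edgeR 4.0.16 (R 4.3.3): filterByExpr by group (minimum count 10, total 15), TMM scaling, robust quasi-likelihood F test, Benjamini-Hochberg adjustment over all genes tested. SE is the absolute log2 fold change over the square root of F. Counting floors of 3 counts cover counting error only. Alternatives were RLE size factors, library totals, DESeq2 1.42.0, a block for the replicate number, no low-count filter, a fit of only the 2 groups and leaving out each library. All 29 members are named, and of each other list up to 3 called genes with the smallest p. Fits were tested on simulated data. Not every gene of the other lists is reported here. Figures used matplotlib 3.10.9 and tables pandas 2.3.3.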

Additional observations from a re-analysis of the deposited data

Results flagged for a closer look

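Of 48 groups of summed genes tested (4 roles in 12 groups), 15 had 1 library far from the others by Dixon's criterion. With normal values about 1 in 20 groups would meet it by chance. The sums were not put on a log scale and the 4 roles share the same libraries, so that rate does not hold here. Epididymal GFP library 8 was high for B cell genes (64.3 CPM), shared genes (20.2 CPM) and vessel genes (4.81 CPM). Epididymal KO HFD library 1 was high for B cell (101 CPM) and T cell genes (102 CPM), and epididymal WT HFD library 3 for B cell (82.8 CPM) and vessel genes (1.12 CPM). Subcutaneous WT chow library 1 was low for B cell (2.68 CPM) and shared genes (2.55 CPM).

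T cell genes were high in subcutaneous GFP library 8 (916 CPM), epididymal mInhbe library 4 (93.3 CPM) and epididymal KO chow library 5 (53.1 CPM). In the epididymal mInhbe library Tcf7, Lef1 and Zap70 stood at 50.1, 19.7 and 7.67 CPM and Cd3e at 1.32 CPM. In the KO chow library the same genes stood at 14.7, 15, 5.47 and 1.54 CPM. Shared genes were high in subcutaneous KO chow library 4 (221 CPM), and vessel genes in subcutaneous mInhbe library 8 (134 CPM) and KO HFD library 6 (29.8 CPM). The 3 WT HFD subcutaneous libraries with little Glycam1 met no such criterion, being 3 of 7.

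Effects differed between groups by a test of the difference itself for 8 results. The HFD effect on Il7r in epididymal fat was smaller in KO than in WT by −1.70 on the log2 scale. The mInhbe effect was lower in epididymal than in subcutaneous fat for Ms4a1 (−2.52), Cr2 (−1.89), Cd22 (−1.71), Fcer2a (−2.41), Cd28 (−1.33), Il7r (−1.46) and Glycam1 (−3.75). Without epididymal GFP library 8 the last of these had the opposite sign, at 0.84, and Cr2 (−0.90), Cd22 (−0.54) and Fcer2a (−0.29) were not called, at adjusted p of 0.126, 0.281 and 0.728 (edgeR). Fcer2a and Glycam1 had not passed the low-count filter in epididymal fat alone. With a replicate block none of these mInhbe differences was called.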

How the results depend on the processing

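Of 89 recomputed counts of called genes, 77 stayed within 1.5 times the reported count and 12 did not. Fits without 1 library are not in this tally and are given beside it. With library totals and with a replicate block, mInhbe called 7 and 8 genes in subcutaneous fat, and leaving out 1 library gave 4 to 9. For KO on HFD in subcutaneous fat DESeq2, the block and the highest fit without 1 library called 1 gene each, higher in KO, and the fit without the 4 libraries low in Glycam1 called 3, lower in KO. In epididymal fat that contrast gave as few as 1 call without 1 library. HFD in subcutaneous WT fat gave 3 calls without the low-count filter, 0 in a fit of the 2 groups and 1 to 9 without 1 library, and in KO fat 12 in a fit of the 2 groups and 7 without the 4 libraries. HFD in epididymal KO fat gave 8 calls without the filter and 4 to 16 without 1 library. The mInhbe effect by depot gave 4 calls without the filter, 0 with the block and as few as 3 without 1 library. Among single called genes 505 of 539 recomputed values kept their call, 34 lost it and 0 changed sign, again with fits without 1 library not counted. That tally includes all 29 calls of each depot comparison (GFP and WT chow). In fits of only the 2 groups compared, 9 of 25 calls were lost. Without epididymal GFP library 8 the Glycam1 difference between depots in the mInhbe effect changed sign, to 0.84. The labels do not say whether a replicate number stands for the same mouse in both depots. Of same-numbered pairs, 46 of 108 within a depot and 14 of 50 between depots correlated over 0.1, which cannot settle it. Library totals moved the median of all genes to −0.30 (HFD in KO) and −0.21 (HFD in WT) in subcutaneous fat, −0.24 for HFD in epididymal KO fat and −0.17 for KO on HFD in both depots. Depth limits Madcam1 and Glycam1 in epididymal fat, where most libraries held fewer than 3 counts. It also limits Madcam1 in subcutaneous KO HFD fat, at 1 to 11 counts.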

Other observations

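Some epididymal libraries held much of 1 or more T cell genes without the T cell receptor. Tcf7 stood at 54.1 CPM in GFP library 9 and 50.1 CPM in mInhbe library 4, where the group medians were 4.81 and 5.25 CPM. Lef1, a partner of Tcf7 in Wnt signalling, reached 20.1 CPM in mInhbe library 2, 19.7 CPM in mInhbe library 4 and 15 CPM in KO chow library 5. The kinase Zap70, which NK cells also use, was highest in the same 3 libraries, at 8.95, 7.67 and 5.47 CPM. Cd3e stood there at 0.721, 1.32 and 1.54 CPM, near the group medians of 0.975 and 1.46 CPM. Klrb1c, the NK cell receptor NK1.1 and a gene named after its values were seen, stood at 125, 115 and 93.9 CPM in these 3 and at 24.9 CPM or less in the other epididymal libraries. Summed cytotoxic and NK cell genes, a list that holds Klrb1c itself, were 130.2, 122 and 99.2 CPM in the 3. Klrb1c made up most of each of these sums, so they add little to its own values. Summed genes of the epididymis were 12774, 13729 and 4435 CPM in the 3. The part of either list in these levels was not tested.

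In the 4 subcutaneous libraries with little Glycam1, Il7r and Cd22 were higher on HFD, but with 1 chow and 3 HFD libraries no test was made. Il7r was 1.08 CPM on chow and 25.2, 14.7 and 12.6 CPM on HFD, and Cd22 was 0.446 CPM on chow and 2.26, 2.29 and 2.16 CPM on HFD. Cd3e was 1.85 CPM on chow and 0.465, 0.557 and 1.74 CPM on HFD. In these libraries the macrophage genes summed to 615 CPM on chow and 1633, 1168 and 1282 CPM on HFD.

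Among subcutaneous libraries with Glycam1, WT HFD library 6 had the least Cr2 for its B cell content. It held 11.6 CPM of Cr2 and 105 CPM of Cd79a, a ratio of 0.111, and 3.48 CPM of Cd28 beside 28.8 CPM of Cd3e. Glycam1 relative to the sum of the others of the 29 was 0.0566 with GFP and 0.0469 with mInhbe, and 0.0215 to 0.0253 in the groups of the knockout experiment. The experiments are separate tables, so the latter difference was not tested.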
